A study of Mus musculus with 16 samples.

Results

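Methylation of CpGs was compared between MII oocytes of superovulated prepubertal mice (SO) and MII oocytes that adult mice had ovulated naturally (IV). The 5 SO and 3 IV libraries are 8 of the 16 in the series, and each was made, as the study states, from 1 pool of oocytes. The labels give oocytes as the cell type, although their extraction text speaks of a blastocyst. All females were F1 animals from C57BL/6J and CBA/Ca. SO females were 23 days old and were injected with equine chorionic gonadotropin (eCG) and then with human chorionic gonadotropin (hCG). IV females were 10 weeks old, received no hormone, and were brought into oestrus together by male pheromones. Cumulus cells had been stripped from the oocytes and the polar bodies were kept. The other libraries served here only to describe the regions that differed: 4 SOA libraries from superovulated females of 10 weeks, and 4 IFC libraries from preantral follicles of prepubertal females grown in culture, to which the labels give an age of 23 days.

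The unit of comparison was a fixed bin of 10 kb. The autosomes of GRCm38 hold 246285 such bins, and 156156 of them (63.4%) had at least 10 methylation calls in each of the 8 libraries and were tested. A call is 1 sequenced read over 1 CpG, and the value of a bin in a sample is the percentage of its calls that were methylated. Age, gonadotropin injection and the way in which ovulation was triggered all changed together between SO and IV, so that their parts cannot be told apart. In a pool, a higher share of methylated copies in every oocyte and a higher share of oocytes with methylated copies cannot be told apart either. No RNA was measured in these libraries.

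The oocyte acquires its DNA methylation late, while it grows inside the follicle, through the de novo methyltransferase DNMT3A and its partner DNMT3L. Methylation is laid down mainly across transcribed gene bodies, which become highly methylated, whereas most intergenic DNA and most CpG islands remain low. The promoters of imprinted genes that carry the maternal mark are methylated in the same period.

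Stretches of 200 bases are printed as examples from inside 6 genes with many differing bins and both CpG-dense windows that differed. The 6 genes were chosen by hand, and Tcf4 and Zfp521 are not among them. Each is the stretch with the most calls in the bin of the gene with the largest difference, or in the window, outside annotated untranslated regions. All are printed from the plus strand of GRCm38, with every CpG in capitals, and the counts are methylated calls summed over the libraries of a group, given as a reading of the site without a test. Of the 5 SO libraries, 3 had calls at the stretches of Npas3 and Fer1l6 and 4 at those of Slit2, Msi2 and Crb2, and all 3 IV libraries had calls at each. The Npas3 stretch is chr12:53822918-53823117 (14 of 19 calls in SO and 1 of 25 in IV), the Klf12 stretch chr14:100201439-100201638 (18 of 33 calls in SO and 2 of 24 in IV) and the Slit2 stretch chr5:47994184-47994383 (17 of 17 calls in SO and 10 of 22 in IV). All of these were more methylated in SO and lie outside exons.
Npas3: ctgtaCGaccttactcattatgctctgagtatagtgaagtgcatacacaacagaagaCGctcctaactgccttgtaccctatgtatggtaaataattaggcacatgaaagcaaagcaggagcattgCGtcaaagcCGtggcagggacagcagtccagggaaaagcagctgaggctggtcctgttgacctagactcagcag
Klf12: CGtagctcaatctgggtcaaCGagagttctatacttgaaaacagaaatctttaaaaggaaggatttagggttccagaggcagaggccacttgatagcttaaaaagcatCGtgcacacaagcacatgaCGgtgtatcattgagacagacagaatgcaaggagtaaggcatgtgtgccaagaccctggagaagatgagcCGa
Slit2: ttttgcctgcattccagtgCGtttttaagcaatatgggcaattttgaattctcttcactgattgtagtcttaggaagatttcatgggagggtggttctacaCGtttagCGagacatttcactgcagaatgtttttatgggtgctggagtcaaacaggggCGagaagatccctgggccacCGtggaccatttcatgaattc
The stretches that were less methylated in SO are chr11:88572209-88572408 in Msi2 (19 of 49 calls in SO and 35 of 37 in IV), chr5:66099155-66099354 in Rbm47 (4 of 32 calls in SO and 26 of 32 in IV) and chr15:58548223-58548422 in Fer1l6 (6 of 25 calls in SO and 24 of 38 in IV). The first and second of them hold no exon of their gene, and the Fer1l6 stretch overlaps one.
Msi2: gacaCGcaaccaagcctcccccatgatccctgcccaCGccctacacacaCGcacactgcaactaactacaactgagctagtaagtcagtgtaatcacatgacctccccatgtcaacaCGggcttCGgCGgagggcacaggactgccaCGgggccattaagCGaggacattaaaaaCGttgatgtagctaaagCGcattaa
Rbm47: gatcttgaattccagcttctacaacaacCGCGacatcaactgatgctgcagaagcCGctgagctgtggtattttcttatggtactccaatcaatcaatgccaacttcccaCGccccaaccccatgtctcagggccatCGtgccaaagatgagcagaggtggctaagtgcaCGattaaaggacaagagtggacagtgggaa
Fer1l6: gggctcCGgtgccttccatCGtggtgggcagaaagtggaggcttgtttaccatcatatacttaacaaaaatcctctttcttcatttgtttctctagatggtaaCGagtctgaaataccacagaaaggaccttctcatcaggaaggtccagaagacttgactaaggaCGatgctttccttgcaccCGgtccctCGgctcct
The CpG-dense stretches are chr19:19110172-19110371 (17 of 95 calls in SO and 35 of 41 in IV), which lies 0.924 kb inside Rorb and outside its exons, and chr2:37793525-37793724 (5 of 94 calls in SO and 18 of 68 in IV), in an exon 17.4 kb inside Crb2.
Rorb: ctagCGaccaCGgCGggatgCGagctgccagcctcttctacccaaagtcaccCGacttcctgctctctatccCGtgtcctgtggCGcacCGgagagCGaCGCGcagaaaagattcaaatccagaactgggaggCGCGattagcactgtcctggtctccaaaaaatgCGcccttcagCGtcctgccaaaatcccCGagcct
Crb2: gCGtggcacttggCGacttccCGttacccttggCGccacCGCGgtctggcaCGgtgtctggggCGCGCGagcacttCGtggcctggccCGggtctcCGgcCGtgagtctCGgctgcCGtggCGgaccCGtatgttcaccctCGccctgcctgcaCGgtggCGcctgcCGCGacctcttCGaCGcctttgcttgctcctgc
The gene stretches hold 4 to 10 CpGs in 200 bases and the CpG-dense ones 16 and 25, and in the gene stretches no more than 49 calls stood behind a group. Choice by calls favours pieces rich in CpGs, so the stretches need not be typical. Bins that differed held a median of 90 CpGs in 10 kb when higher in SO and 84 when lower.

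Depth differed between the groups. The SO libraries held 5247001 to 19660161 calls and the IV libraries 15644144 to 17275310, and SO1 and SO2 had medians of 25 and 24 calls per tested bin against 56 to 91 in the other 6. Between 68.8% and 91.5% of the covered positions carried a single call. Calls are reads without molecular identifiers. IV1 stood apart from IV2 and IV3 in bins of low methylation, and SO4 by less from the other SO samples. In bins with a mean under 20% in the IFC and SOA libraries, IV1 had a mean of 15.9%, against 8.33% in IV2, 7.56% in IV3 and 7.62% to 8.26% in SO except SO4, which had 10.8%. DNA of somatic cells could be looked for only through methylation, and the window from 2 to 4 kb upstream of H19, which is methylated on 1 parental copy in somatic cells and unmethylated in oocytes, read 1 of 53 calls methylated in IV1, 3 of 77 in IV2 and 1 of 37 in IV3. The exact 95% interval of IV1, with every call taken as independent, reaches 10.1%, so these calls are too few to decide on a small share of somatic DNA. The main comparisons, the medians of the lists and the called genes are therefore given with and without IV1. Runs, levels and places of called bins, and bin counts of the lists, are given with all libraries unless stated. The same holds for the mean and the logistic calls of CpG-dense windows.

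Averaged over all tested bins, methylation did not differ between the groups by more than the spread between samples. The 5 SO samples had bin means of 43.1, 43.2, 42.1, 43.1 and 41.6%, and the IV samples had 45.7, 41.9 and 41.7%. Both IV2 and IV3 lay inside the SO range, and IV1 lay above every SO sample. The group means were 42.6% ± 0.712 in SO (SD, n = 5) and 43.1% ± 2.21 in IV (SD, n = 3), a difference of -0.501 points (two-sided exact permutation test, p = 0.75). Without IV1 the sign turned, to 0.771 points (exact p = 0.286). With 5 samples against 3 the smallest p this test can give is 0.0179, and 0.0476 without IV1.

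The same held for bins of each level. Bins were sorted by the mean of the IFC and SOA libraries, which have no part in the comparison. Low bins, under 20%, had a mean of 8.48% ± 1.34 in SO and 10.6% ± 4.58 in IV, a difference of -2.10 points (exact permutation p = 0.464) that became 0.538 points without IV1 (exact p = 0.714). Bins between 20% and 80% differed by 0.166 points (exact p = 0.893) and by 1.37 points without IV1 (exact p = 0.1905). Methylated bins, over 80%, differed by 1.29 points (exact p = 0.179) and by 0.450 points without IV1 (exact p = 0.667). Bins that overlap a gene had means of 51.3% in SO and 51.1% in IV (exact p = 0.821), a difference of 0.187 points that was 1.03 without IV1 (exact p = 0.0952). Bins outside genes had 26.95% and 28.7% (exact p = 0.357), a difference of -1.74 points that turned to 0.298 without IV1 (exact p = 0.714).

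**Figure D1:**
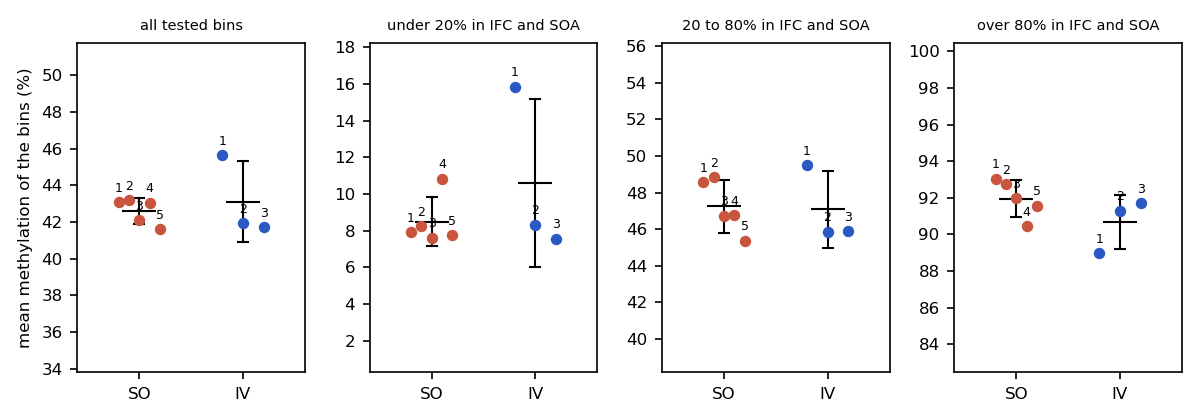
Mean methylation of the tested bins (%) in each SO (n = 5) and IV (n = 3) sample, for all bins and for bins sorted by their mean in IFC and SOA; numbers are replicates, wide bars are group means, error bars are SD, and the panels cover different parts of the axis with the same span. IV1 lies above every SO sample in the first 3 panels, while IV2 and IV3 lie within or next to the SO samples.

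By a logistic test of the calls, single bins differed in both directions. A bin was called different when the logistic test of the methylated and unmethylated calls gave an adjusted p below 0.05 over all tested bins and the group means differed by at least 20 points. By this rule 1450 bins were higher in SO (0.929% of the tested bins) and 1259 were lower (0.806%). Without the limit of 20 points the balance was the other way, with 7139 bins higher and 11960 lower at the adjusted p alone, and it turned to 7259 and 4433 without IV1. The median difference was 24.9 points in the higher bins and -24.4 in the lower ones, and the largest were 57.1 and -56.2 points, against a median of -0.653 over all tested bins. All SO samples lay above all IV samples in 1147 of the higher bins, and all lay below them in 933 of the lower bins. Groups without overlap were found in 5.94% of all tested bins.

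Leaving out IV1 changed the 2 directions differently. The higher calls rose to 1931 bins (1.24%) and the lower calls fell to 1109 (0.71%). Of the 1450 higher bins 1297 were called again (89.4%, and 67.2% of the calls made without IV1), and of the 1259 lower bins 895 were (71.1% and 80.7%). The logistic test counts calls and takes no account of the spread between pools of 1 group, and the median dispersion of the bins, the spread relative to counting error alone, was 1.71. With limma on the bin percentages, which estimates that spread, 519 bins kept an adjusted p below 0.05 and 20 points, 329 higher and 190 lower, and all 519 were among the logistic calls. Without IV1 limma called 73 higher and 7 lower. A quasi-binomial F test, with the dispersion of each bin taken from its own 8 samples, called 2 bins, both higher, and 0 without IV1.

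Called bins lay in genes more often in the higher direction. Their levels, which the call itself limits, are given as a description. The span between the quartiles of the higher bins went from 49.7% to 75.9% in SO and from 22.4% to 47.6% in IV. The span between the quartiles of the lower bins went from 23.3% to 48.6% in SO and from 48.9% to 76.4% in IV. IV was under 20% in 290 of the higher bins and SO over 80% in 260, and no called bin went from under 20% in 1 group to over 80% in the other. A gene was overlapped by 1163 of the higher bins (80.2%), by 663 of the lower bins (52.7%) and by 64.3% of all tested bins. A promoter, taken as the 1 kb before a transcription start, was overlapped by 168 (11.6%), 123 (9.77%) and 15.2%. The median number of CpGs was 90, 84 and 92. Of the bins called also without IV1, 81.9% of 1297 higher and 54.2% of 895 lower ones overlapped a gene.

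Libraries that had no part in the call also differed at these bins. The SO and IV values chose the bins and are given as a description. In the higher bins the SO samples had means of 66.3, 66.2, 57.6, 61.4 and 61.9%, and the IV samples 38.6, 33.3 and 35.0%. There the 4 SOA samples had 40.6, 43.1, 40.7 and 37.1% (mean 40.4% ± 2.49, SD, n = 4), and the 4 IFC samples 61.8, 63.0, 60.8 and 56.8% (60.6% ± 2.67, n = 4). The SOA mean was thus nearer to IV than to SO, with SOA4 below IV1, and the IFC mean was nearer to SO, with IFC4 below every SO sample. In the lower bins the SO samples had 36.4, 35.0, 42.9, 34.4 and 31.8%, and the IV samples 65.3, 61.5 and 59.7%. The SOA samples had 62.5, 58.6, 56.2 and 56.05% (58.3% ± 3.02, n = 4) and the IFC samples 35.9, 36.2, 36.1 and 33.3% (35.4% ± 1.41, n = 4). IFC was above SOA in 1318 of the 1450 higher bins (90.9%) and in 101 of the 1259 lower bins (8.02%), against 54.1% of all tested bins.

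**Figure D2:**
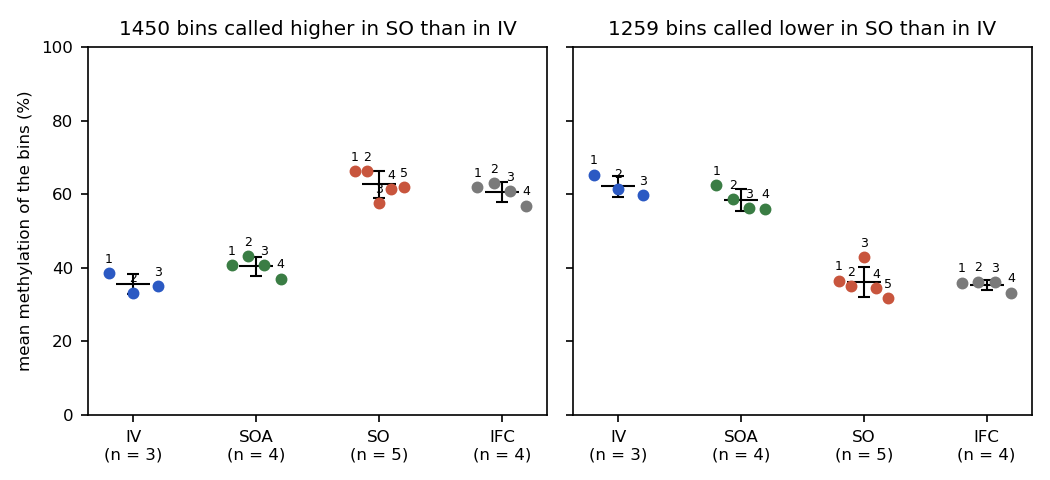
Mean methylation (%) of the 1450 bins called higher (left) and the 1259 called lower (right) in SO than in IV, in every sample of the 4 groups; numbers are replicates, wide bars are group means and error bars SD. SO and IV chose the bins, so their separation is given by the choice, while SOA (40.4% and 58.3%) and IFC (60.6% and 35.4%) had no part in it.

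Each library was also read in bins that had been called without it. SO1 had 60.8% in the 1380 bins called higher from the other 7 libraries, where the other SO samples had 62.6% and the IV samples 35.5%. SO3 had 53.7% in its 1770 bins and kept the smallest part of the difference among the SO samples, 66.9%. IV1 had 41.7% in the 1931 bins called higher without it, where IV2 and IV3 had 32.4% and the SO samples 59.7%, and kept 65.7%. Over the 8 libraries 65.7% to 96.2% of the difference was kept in the higher bins. In the lower bins 59.2% (SO3) to 105% (SO5) was kept, and IV2 and IV3 kept 68.6% and 61.6%. Every library left out lay nearer to the mean of its own group than to the mean of the other.

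**Figure D3:**
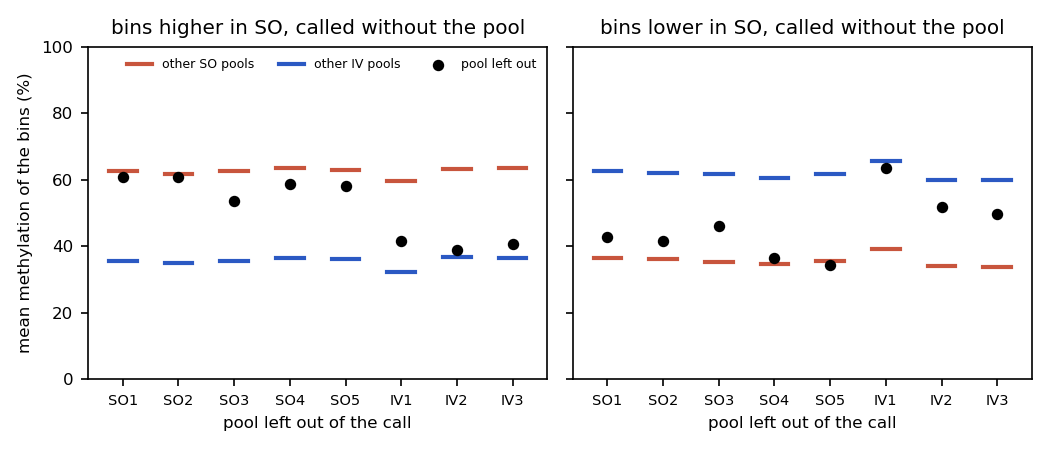
Mean methylation (%) of the bins called higher (left) or lower (right) in SO when the library named on the horizontal axis was left out of the call; the dot is the library left out, and the coloured bars are the means of the other SO and the other IV libraries. SO3 in both panels, IV1 among the higher bins and IV2 and IV3 among the lower bins lie farthest from the bar of their own group.

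Called bins came in runs. Bins of the same direction were joined when at most 20 kb lay between them. The higher bins formed 939 runs, of which 722 were single bins and 106 held 3 or more, with 506 bins (34.9%). The lower bins formed 817 runs, of which 612 were single bins and 88 held 3 or more, with 413 bins (32.8%). The longest higher run spanned 330 kb with 27 called bins and lay within Tcf4. The longest lower run spanned 270 kb with 25 called bins and lay within Msi2. Further higher runs covered 260 kb of Zfp521 (22 bins), 190 kb of Npas3 (16 bins) and 140 kb of Atrnl1 (14 bins), and further lower runs covered 150 kb at Rbm47 and 150 kb at Fer1l6 (14 bins each).

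At least 1 higher bin was found in 713 of the 27552 genes that overlap a tested bin (2.59%), and at least 1 lower bin in 455 (1.65%). Of these, 203 genes held 2 or more higher bins and 125 held 2 or more lower bins, and 3 genes were in both sets. At least 5 higher bins were found in 50 genes and at least 5 lower bins in 21. Genes with several called bins were long. The median length was 155 kb for those with 2 or more higher bins and 122 kb for those with 2 or more lower bins, against 14.9 kb for all genes with a tested bin, so that they also had more bins to be called. The whole body of each gene was therefore tested as well, by limma on the percentage of methylated calls from the start to the end of the gene. Among 20001 genes with at least 20 calls in each of the 8 libraries, 50 were higher in SO (0.25%) and 23 were lower (0.115%) at an adjusted p below 0.05, and 2038 had an unadjusted p below 0.05. All 73, which the same difference chose, had groups without overlap, as had 7.51% of all tested genes. Each of the 73 kept its direction without IV1, but only 8 of them (7 higher, 1 lower) kept an adjusted p below 0.05, and no other gene passed without IV1. The number called was 85 without SO3, 12 without SO1, 11 without SO2, 7 without SO4, 8 without SO5, 1 without IV2 and 3 without IV3. It was 0 with limma on empirical logits (1751 at an unadjusted p below 0.05) and 2 with the 3 deep SO libraries alone. With all libraries thinned to the same number of calls it was 25, of 18344 tested genes. The median difference over all tested genes was 0.406 points, and 1.13 without IV1. Every gene whose gene-body difference is given kept its sign without IV1, and none that missed the gene test with all libraries passed it without IV1.

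The 5 genes with the most bins higher in SO all encode transcription factors. Tcf4, on chromosome 18, encodes a bHLH transcription factor of the nervous system and of lymphocytes, and had 27 called bins of 35. Its body was methylated at 78.7, 77.9, 75.6, 78.1 and 78.2% in SO and 46.7, 41.96 and 46.8% in IV. The SO samples lay close together and far above every IV sample, with a difference of 32.6 points (SE 2.11, adjusted p = 0.00194 with limma) and 33.3 points without IV1 (adjusted p = 0.0167). SOA had 54.5% and IFC 82.9%. All 27 bins had groups without overlap. In the 100 kb on either side of the gene the mean difference was -4.48 points upstream and 2.34 downstream, where 1 bin read 45.6% in SO and 27.1% in IV.

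Zfp521, a zinc finger transcription factor of blood and neural progenitors, also on chromosome 18, had 22 of 28 bins called. SO had 62.01, 61.2, 53.96, 59.9 and 60.3% and IV 28.4, 24.1 and 28.3% over the gene. The groups did not overlap and had a difference of 32.5 points (SE 2.52, adjusted p = 0.00445 with limma), and of 33.2 without IV1 (adjusted p = 0.0392). SOA had 28.9%, next to IV, and IFC 64.7%, above the SO mean. Zbtb20 (chr16:42875881-43642602, plus strand), a zinc finger repressor of liver and hippocampus, had 22 of 54. It read 57.4, 56.8, 52, 56.9 and 56.5% in SO and 41.9, 35.7 and 35.8% in IV, a difference of 18.1 points (SE 2.42, adjusted p = 0.0382 with limma), with an adjusted p of 0.0508 without IV1.

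Npas3 (chr12:53248677-54072175, plus strand), a bHLH-PAS transcription factor of the brain, had 23 of 73 bins called. Its body read 64.4, 61.2, 60.2, 66.9 and 64.5% in SO and 49.99, 46.8 and 48.3% in IV, a difference of 15.1 points (SE 2.29, adjusted p = 0.0430 with limma and 0.107 without IV1). The called bins lay between 21.4% and 86.99% of its length, and none was called nearer to its ends. Klf12 (chr14:99870632-100284679, minus strand), a Krüppel-like repressor, had 19 of 40 bins called, and its body read 31.4, 36.05, 28.97, 36.02 and 33.9% in SO and 16.1, 9.73 and 9.61% in IV. SO was thus at an intermediate level over a gene that was low in IV, a difference of 21.4 points (SE 2.66, adjusted p = 0.0347 with limma). Without IV1, 25 bins were called in Klf12 and the adjusted p of the gene was 0.0508. The changed stretches of Npas3 and Klf12 printed above belong to these runs.

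Slit2 (chr5:47983138-48307733, plus strand), a secreted ligand that repels growing axons through Robo receptors, had 14 of 25 bins called. It read 36.99, 36.3, 33.04, 39.6 and 33.2% in SO and 18.8, 14.2 and 15.3% in IV, a difference of 19.7 points (SE 2.39, adjusted p = 0.0339 with limma). Its relative Slit3 had 12 of 58 bins called and read 62.4% ± 4.80 in SO and 49.4% ± 3.54 in IV, with an adjusted p of 0.157 for the gene. Prkag2 (chr5:24862744-25100642, minus strand), a regulatory subunit of the energy sensor AMPK, had 15 of 25. It read 54.8, 59.3, 51.1, 50.9 and 48.4% in SO and 36.03, 29.4 and 31.00% in IV, a difference of 20.8 points (SE 2.98, adjusted p = 0.0393 with limma). Both Slit2 and Prkag2 passed the gene test with all samples and missed it without IV1 (adjusted p = 0.0643 and 0.0990 with limma).

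The other genes among the 12 with the most higher bins did not pass the gene test. Atrnl1, an attractin-like membrane protein, had 15 of 51 bins called, and the run of 14 bins in the first part of the gene read 57.1% in SO and 19.5% in IV. Over the whole gene it had 46.6% ± 2.93 in SO and 33.8% ± 3.85 in IV (adjusted p = 0.0973 with limma). Ctnnd2, a neuronal catenin, had 15 of 72 bins called, and 26 without IV1. Pard3b, a cell polarity protein, had 12 of 74, and Dlgap2, a scaffold of the postsynaptic density, 11 of 72. Dlgap2 read 74.6, 74.6, 73.2, 74.02 and 72.9% in SO and 66.6, 66.1 and 63.8% in IV, so its groups did not overlap although the adjusted p of the gene was 0.127.

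Msi2 had the most bins lower in SO, followed by Rbm47 and Fer1l6 with equal numbers. Msi2 (chr11:88339382-88718513, minus strand), a Musashi protein that controls translation in stem cells and germ cells, had 25 of 39 bins called. Its body read 48.7, 49.9, 60.3, 41.8 and 46.6% in SO and 73.3, 72.6 and 73.5% in IV. The IV samples lay within 1 point of each other and the SO samples were widely spread, with SO3 highest and a difference of -23.7 points (SE 3.78, adjusted p = 0.0462 with limma). Without IV1 the difference was -23.6 points and the adjusted p 0.144. SOA had 73.8% and IFC 46.2%.

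Rbm47 (chr5:66016549-66173118, minus strand), an RNA-binding protein of endoderm and epithelia, had 14 of 17 bins called. It read 53.7, 45.2, 64.4, 36.05 and 30.9% in SO and 76.7, 75.6 and 75.6% in IV. The SO samples were widely spread, and the difference of -29.9 points (SE 6.83) did not pass the gene test (adjusted p = 0.130 with limma). Fer1l6 (chr15:58510048-58665092, plus strand), a member of the ferlin family of membrane proteins, had 14 of 16 bins called. It read 21.4, 14.6, 24.98, 15.9 and 11.2% in SO and 57.7, 40.1 and 41.5% in IV, a difference of -28.8 points (SE 4.68, adjusted p = 0.0483 with limma). IV1 was the highest of the IV samples, and without it the difference was -23.2 points (adjusted p = 0.107). At Fer1l6 the difference did not end with the gene, as the 100 kb downstream had a mean difference of -23.9 points.

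The next genes in this order had 6 to 11 lower bins and did not pass the gene test. Frmd4a, a scaffold of cell polarity, had 11 of 60 bins called and read 35.5% ± 2.70 in SO and 45.8% ± 2.36 in IV. Akap6, an anchor of protein kinase A, had 9 of 38, all in the first 47.3% of the gene, and read 18.04% ± 2.32 and 31.6% ± 2.06 (adjusted p = 0.0507 with limma). Adgrl3, an adhesion receptor of synapses, had 9 of 51. Xdh, the xanthine dehydrogenase of purine breakdown, had 6 of its 8 bins called and read 67.2, 60.1, 74.4, 65.9 and 55.5% in SO and 84.8, 84.5 and 84.01% in IV. All SO samples of Xdh lay below all IV samples, with -19.8 points (adjusted p = 0.0894). Cdh13 had 8 of 104 bins called, all between 8.77% and 17.4% of its length, and 4 without IV1. Zfpm2, a cofactor of GATA factors, and Etl4 had 7 each, and 4 each without IV1. Nxph1, a neurexin ligand, had 6 of 16, and 3 without IV1. Ldlrad3, of the LDL receptor family, had 6 of 24.

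**Figure D4:**
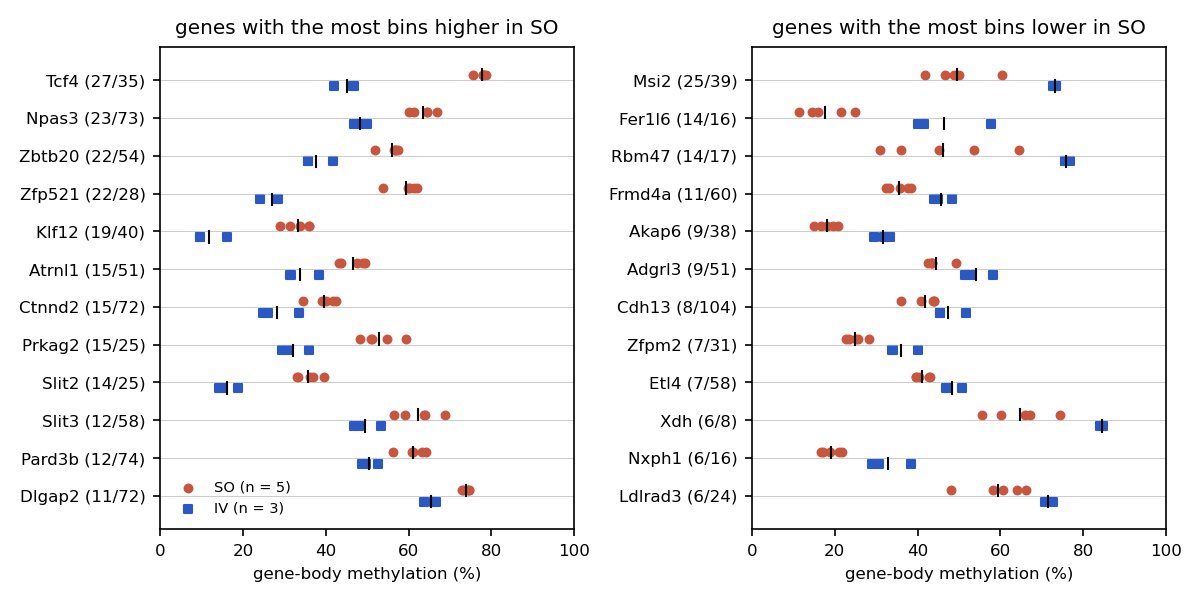
Gene-body methylation (%) in each SO sample (circles, n = 5) and each IV sample (squares, n = 3) for the 12 genes per direction with the most called bins; vertical strokes are group means, and the numbers beside a gene are its called and tested bins. The groups are well apart at Tcf4 (77.7% and 45.1%) and Zfp521 (59.5% and 26.97%), and the SO samples are spread widely at Rbm47.

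**Figure D5:**
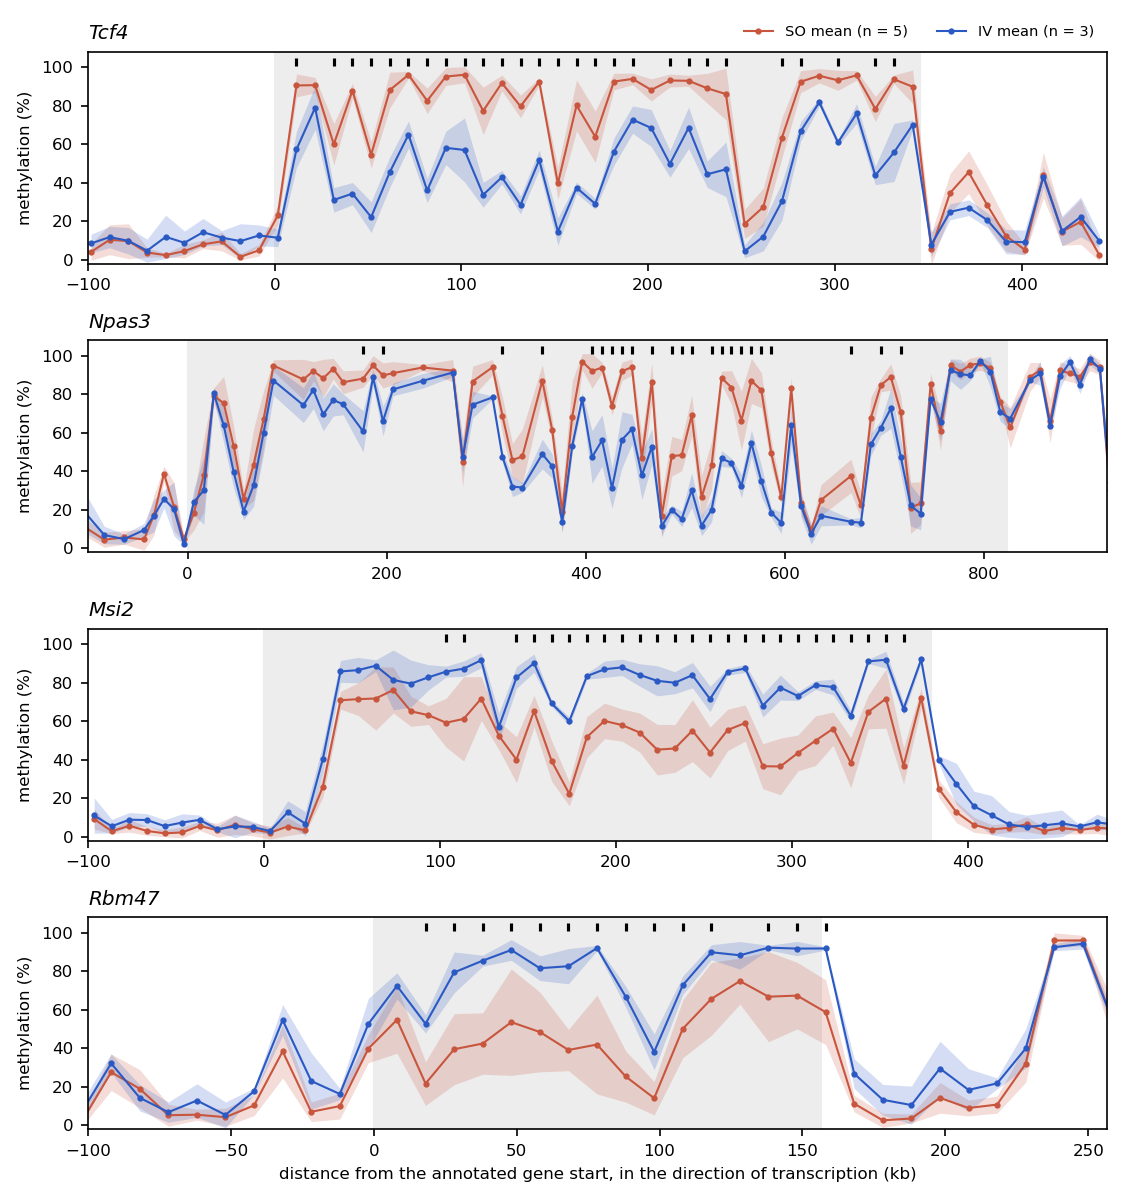
Mean methylation (%) per tested 10-kb bin along Tcf4, Npas3, Msi2 and Rbm47 and 100 kb on either side, against the distance from the annotated gene start in the direction of transcription (kb); lines are the means of SO (n = 5) and IV (n = 3), bands are SD, the grey area is the gene, and strokes at the top mark called bins. The lines part most inside the genes, and no bin of Npas3 is called near either end. In the 100 kb before and after the gene, SO minus IV had means of -2.62 and -4.42 points at Msi2 and -6.08 and -7.14 at Rbm47.

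Styxl1, Wdr81 and Cnr1 were among the genes with the largest differences over the whole body. Styxl1 (chr5:135747220-135778385, minus strand), related to phosphatases, read 75.97, 76, 54.2, 58.97 and 60.2% in SO and 23.8, 19.4 and 19.3% in IV, a difference of 44.2 points (SE 5.38, adjusted p = 0.0339 with limma and 0.102 without IV1). Wdr81 (chr11:75440944-75454717, minus strand), a WD-repeat protein of endosomes, read 90.5, 87.8, 87.2, 80.4 and 82.4% in SO and 56.6, 41.6 and 49.6% in IV, a difference of 36.4 points (SE 3.75, adjusted p = 0.0163 with limma), with an adjusted p of 0.0392 without IV1. Cnr1 (chr4:33924593-33948831, plus strand), the cannabinoid receptor of the brain, read 52.5, 51.6, 35.1, 35.2 and 36.5% in SO and 14.2, 7.32 and 2.87% in IV, so that SO was intermediate over a gene that was low in IV, with a difference of 34.1 points (SE 5.17, adjusted p = 0.0430 with limma and 0.107 without IV1). The zinc finger gene Zscan26 and the long non-coding RNA genes Gm28410, AC132251.1, Gm38251 and Gm13944 were higher by 31.6 to 39.9 points, and none of them passed without IV1 (adjusted p = 0.0508 to 0.127). The library with the fewest calls held 28 at Gm28410 and 34 at Zscan26, against 100 at Styxl1 and 105 at Wdr81. Gm38251 lies inside Mark1, a kinase of microtubule proteins that was itself higher by 27.8 points (adjusted p = 0.0383, and 0.102 without IV1), so that the 2 share calls and are not separate.

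In the other direction, the largest differences were at ccdc198 and Klk15. The coiled-coil gene ccdc198 (chr14:49219588-49245474, minus strand) read 12.2, 15.2, 22.9, 16.4 and 8.49% in SO and 68.3, 68.5 and 41.7% in IV, a difference of -44.5 points (SE 6.21, adjusted p = 0.0382 with limma and 0.122 without IV1). Klk15 (chr7:43933740-43939639, plus strand), a kallikrein protease, read 3.45, 32.3, 25.3, 10 and 4.55% in SO and 51.6, 64 and 61.1% in IV, a difference of -43.8 points (SE 6.95, adjusted p = 0.0462 with limma and 0.122 without IV1). It lies in a run of 11 lower bins over the kallikrein cluster at chr7:43920001-44060000, which read 23.8% in SO and 58.2% in IV. The non-coding genes Gm27007 and Gm33958 are neighbours and belong to a run at chr13:44360001-44460000. Gm27007 read 13.3, 13.1, 15.8, 12.5 and 4.63% in SO and 52.02, 43.7 and 42.9% in IV, a difference of -34.3 points (SE 3.24, adjusted p = 0.00953 with limma), and passed without IV1 as well (adjusted p = 0.0436). It was the only lower gene that did. Gm28286, Sgk2, Gm27230, Ankrd34c and Slc22a17 had differences from -26.8 to -36.9 points, and missed the test without IV1 (adjusted p = 0.0946 to 0.107). Slc22a17 held no called bin with all libraries. The library with the fewest calls held 46 at ccdc198, 29 at Klk15, 21 at Gm28286, 24 at Gm27230 and 27 at Ankrd34c, against 180 at Gm27007.

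Genes that the study lists as differing between SO and SOA were read here against IV. Those lists were chosen on the same SO samples, so that a shared direction is not independent evidence. Over all features, 0.929% of tested bins and 0.25% of tested genes were called higher, and 0.806% and 0.115% lower. Of the 40 genes listed as higher in SO, 38 were matched, and all 38 held higher bins, 369 of their 1285 tested bins (28.7%) with a median gene-body difference of 15.1 points, and 16.5 without IV1. The gene test called 17 of them, and 3 without IV1, among them Tcf4, Zfp521, Mark1 and Rmdn2, a regulator of microtubule dynamics, which read 53.8, 46.6, 51.03, 54.8 and 50.9% in SO and 26.9, 22.1 and 20.7% in IV, a difference of 28.2 points (SE 2.63, adjusted p = 0.00953 with limma and 0.0392 without IV1). The 2 genes listed as lower, Msi2 and Soga1, were both called lower. Soga1, a suppressor of autophagy, read 28.4, 26.2, 26.95, 25.3 and 19.97% in SO and 59.4, 48.3 and 44.5% in IV, a difference of -25.4 points (SE 3.57, adjusted p = 0.0382 with limma and 0.0946 without IV1). Of 15 genes picked from those that the study names for any comparison, 4 were called, 2 of them also without IV1. The others included Sox5 (-3.45 points), Myo16 (-4.73), Prdm16 (9.71), Map2k6 (5.92), Sfi1 (-11.3), Sdk1 (1.33), Adgrl2 (0.428) and Zscan10 (-1.70), with adjusted p between 0.102 and 0.977 with limma. The study named Sox5, Myo16, Prdm16 and Map2k6 between IFC and SO, and Sdk1 and Adgrl2 between SOA and IV. Sfi1 and Zscan10 it named between SO and SOA, for CpG islands within the genes. For Sox5, Myo16, Prdm16, Map2k6, Sdk1 and Adgrl2 it counted differing tiles, which are pieces with a fixed number of CpGs. The differences given here are those of whole gene bodies, so they do not show whether those islands or tiles differed. The study stated no difference between SO and IV for these genes.

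Lists of genes by function were described by their counts and medians beside those of all genes, whose median difference was 0.406 points. The lists were written with earlier results of these data known. Some members, such as Tcf4 and Zfp521, were named by the study from the same SO samples. Shares above those of all genes are thus not independent evidence. Of all tested genes 0.25% were called higher and 0.115% lower, higher bins were found in 2.59% of genes and lower bins in 1.65%, and 0.929% of all tested bins were higher and 0.806% lower. Of 53 developmental transcription factors 6 were called higher, with Tcf4, Zfp521, Tox2 and Klf12 leading, and none lower, and 2 were called without IV1. Higher bins were found in 16 of them (30.2%) and made up 146 of 1507 bins (9.69%), and the median gene difference was 2.04 points, and 2.73 without IV1. Tcf4, Zfp521 and Klf12 held 27, 22 and 19 of these bins, and the genes of the list had a median of 21 tested bins against 2 for all genes, so that each had more bins to be called. Tox2, an HMG-box factor, read 73.00% ± 3.64 in SO and 50.2% ± 4.51 in IV (adjusted p = 0.0382 with limma, and 0.106 without IV1). Of 43 axon guidance genes 1 was called, Slit2, and 10 held higher (23.3%) and 2 held lower bins (4.65%). Of their 903 bins 42 were higher (4.65%) and 4 lower (0.443%), and the median was 1.56 points, and 1.72 without IV1. Slit2, Slit3 and Sema3a held 14, 12 and 7 of the higher bins, and the median gene of the list had 15 tested bins. Sema3a, a secreted repellent, read 38.04% ± 3.84 and 23.1% ± 6.23, and Nrp2, a semaphorin receptor, 22.8% ± 4.25 and 11.4% ± 4.22, with adjusted p of 0.127 and 0.208. Dcc, the netrin receptor, had -4.74 points.

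Of 42 tested glutamate and GABA receptor genes none was called by the gene test (4 at an unadjusted p below 0.05), and 17 of 626 bins were higher (2.72%) and 2 lower (0.319%). Their median was -0.621 points and turned to 1.30 without IV1. Grin2b, a subunit of the NMDA receptor, had -7.01 points, and -3.81 without IV1. Of 35 cadherins and catenins none was called (3 at an unadjusted p below 0.05), with 30 higher and 11 lower bins of 742 (4.04% and 1.48%) and a median of 0.0959, which was 0.830 without IV1. Ctnnd2 held 15 of the higher bins and Cdh13 8 of the lower ones, and the median gene of the list had 10 tested bins. Cdh8 read 66.4% ± 5.51 in SO and 49.8% ± 2.04 in IV (adjusted p = 0.0894 with limma). Of 31 RNA-binding proteins 1 was called, Msi2, and its list had 12 higher and 42 lower bins of 642 (1.87% and 6.54%) with a median of 2.68 points, and 1.82 without IV1, and 25 of the lower bins were in Msi2 and 14 in Rbm47. Khdrbs3 and Nova1, both splicing regulators, lay on the other side, with 16.3 and 12.3 points (adjusted p = 0.0603 and 0.0591).

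The lists of hormone signalling, of the oocyte and of DNA methylation had no called gene. With 0.25% of all tested genes called higher and 0.115% lower, lists this short are too small to show an absence. Among 32 tested genes of gonadotropin and steroid signalling none was called (2 at an unadjusted p below 0.05), 2 of 292 bins were higher (0.685%) and none was lower, against 0.929% and 0.806% of all tested bins, and the median was 0.00307 points, and 0.863 without IV1. These bins were in Nr5a2, a nuclear receptor of granulosa cells (4.26 points over the gene), and in Esrrg, an oestrogen-related receptor (4.98). Among 30 genes of follicle activation 1 was called, Prkag2, which also held 15 of the 16 higher bins among 265 (6.04%), and the median was 2.70 points, and 2.29 without IV1. Mtor, the growth kinase of that pathway, read 89.5% ± 2.04 and 90.3% ± 2.46. None of the 103 bins of the oocyte genes and none of the 191 bins of the genes for DNA methylation and imprint maintenance was called. Their medians were 0.0752 and 1.17 points over 23 and 30 tested genes (-0.0712 and 1.06 without IV1), from 36 and 31 listed. Limma called none of these genes, with or without IV1. An unadjusted p below 0.05 was found for 5 and 3 of them, against 2038 of all 20001 tested genes. The logistic test with the limit of 20 points called no gene of these lists either, other than Prkag2.

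Outside genes, the higher bins with the largest differences were single and spread over the genome. The first, chr8:99740001-99750000, lies 6.56 kb from the non-coding gene A330008L17Rik and read 78.6, 70, 71.8, 52 and 33.3% in SO and 27.3, 4.35 and 20% in IV. The bin chr1:138260001-138270000, 3.74 kb from Atp6v1g3, a subunit of the proton pump, had a mean of 44.5% in SO and 5.59% in IV. The other 3, chr2:78750001-78760000, chr9:32060001-32070000 and chr5:10120001-10130000, differed by 38.7 to 42.5 points. As few as 10 calls in a sample stood behind these values.

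Of the 5 lower bins outside genes with the largest differences, 3 are adjacent, from chr15:58710001 to 58740000, downstream of Fer1l6. The middle one read 6.67, 10, 36.4, 15.4 and 13.04% in SO and 67.9, 73.02 and 76.6% in IV. SO3 was the highest of the SO samples there, and every SO sample was below every IV sample. The fourth, chr15:74190001-74200000, read 53.8, 37.1, 66.4, 21.02 and 19.1% in SO and 89.1, 92.6 and 90.98% in IV. The fifth, chr9:27490001-27500000, had means of 27.1% and 74.03%. Of the lower runs that overlap no gene, the one with the most called bins, chr11:108970001-109120000, held 13 and read 23.9, 20.3, 27.9, 24.3 and 24.9% in SO and 65.4, 52.3 and 55.7% in IV, with 53.95% in SOA and 25.6% in IFC. Without IV1 the 10 named bins outside genes kept their direction, with differences of 39.2 to 48.97 points in the higher and -41.5 to -58.5 in the lower bins.

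The mean level of CpG-dense DNA did not differ detectably. Of 14633 fixed windows of 1 kb with at least 50 CpGs, 2162 had at least 20 calls in each library, and 2034 of these had a mean under 20%. Their mean was 5.49% ± 0.572 in SO (SD, n = 5) and 5.75% ± 0.298 in IV (SD, n = 3; two-sided exact permutation p = 0.536). With limma no window was higher in SO and 2 were lower (0.0925%), and 99 had an unadjusted p below 0.05. Both also passed without IV1 or IV3. The window of Rorb passed without any of the 8 libraries, while that of Crb2 missed the test without SO1, SO2, SO3, SO4, SO5 or IV2, and 4 windows were lower without IV2. The logistic rule of the bins called 16 windows higher (0.74%) and 12 lower (0.555%), in all 1.3% of the windows against 1.73% of the bins. At Rorb, a nuclear receptor of retina and brain, the window chr19:19110001-19111000 near the gene start read 31.8, 28.6, 21.3, 10.3 and 19.05% in SO and 80, 91.8 and 90% in IV. The difference was -65.03 points (SE 5.11, adjusted p = 0.00474 with limma), and -68.7 without IV1 (adjusted p = 0.0120). SOA read 100, 54.5, 60 and 68.9% and IFC 17.1, 57.1, 40 and 28.6%, on as few as 7 calls.

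The other window, chr2:37793001-37794000, lies in Crb2, a Crumbs protein of epithelial polarity. In SO it read 2, 2.56, 4.20, 0 and 2.25%, where the 0 in SO4 rests on 113 calls and allows up to 2.65% if all calls are independent. In IV it read 21.6, 28.1 and 34.7%, and the difference was -25.95 points (SE 2.65, adjusted p = 0.0157 with limma), and -29.2 without IV1 (adjusted p = 0.00648). Here SOA did not lie next to IV, since 2 of 130 calls were methylated in SOA4 and 0 of 47, 12 and 18 in the others, which allow up to 6.38, 25 and 16.7%. IFC reached 16.7% in IFC4 and at most 3.57% in the other 3.

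Windows at the starts of maternally methylated imprinted genes did not differ detectably in their mean. For each of 18 genes the 2 kb around the start with the most CpGs was read. The mean over these windows was 68.3, 72.4, 73.3, 70.4 and 71.01% in SO and 66.5, 66.4 and 70.6% in IV, so that the groups overlapped. The means of 71.1% ± 1.94 in SO (SD, n = 5) and 67.9% ± 2.41 in IV (SD, n = 3) differed by 3.21 points (two-sided exact permutation p = 0.107), and by 2.53 without IV1 (exact p = 0.238). In 13 windows, picked after the values had been seen for a mean over 50%, the level was 94.7% ± 2.15 and 90.7% ± 4.07, a difference of 4.04 points (exact permutation p = 0.125) that was 2.12 without IV1 (exact p = 0.429). Among these, Mest read 94.1, 100, 98.99, 92.05 and 95.2% in SO and 86.7, 75 and 95.4% in IV, and Kcnq1ot1, a non-coding RNA that silences its neighbours, 100, 93.5, 97.5, 98.3 and 92.9% and 97.4, 92.8 and 96.97%. The windows of Grb10, Inpp5f, Nespas and Gab1 were low in both groups, and that of Gnas was intermediate, with means of 34.2% and 25.8%. Windows were placed by annotated starts and CpG number, so a low one need not hold the maternally methylated region of its gene. The study itself read such regions and reported IV as lower at a single one, at Gnas, which its figure names Nespas-Gnasxl. It wrote that IV1, in which it suspected slight somatic DNA, seemed to drive that difference. The Gnas window read here was placed by the rule above, not by that region, so its values do not bear on that report. This window read 36.99% in IV1, 9.38% in IV2 and 31.1% in IV3, and differed by 8.38 points, and by 13.95 without IV1. Of the 15 gene bodies of the list that were tested none was called (1 at an unadjusted p below 0.05). With 0.25% of all tested genes called higher and 0.115% lower, 15 genes are too few to show an absence. Of 89 bins 1 was higher (1.12%), in Airn, and none was lower, against 0.929% and 0.806% of all tested bins. The window upstream of H19 had 0.758% ± 1.09 in SO and 2.83% ± 1.01 in IV, where SO1, SO2 and SO5 had 0 methylated of 19, 39 and 31 calls, which allow up to 15.8, 7.69 and 9.68%. Intervals and limits of this kind cover counting error only. They also take every call as independent, although 1 read over several CpGs gives several calls.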

How the data were processed

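PBAT libraries of pooled MII oocytes were analysed from the deposited coverage tables, which give, per CpG position and strand, a methylation percentage with the methylated and the unmethylated call count. For the authors' processing, the submitters' notes name Trim Galore 0.4.4 and cutadapt 1.9.1 (trimming), Bismark 0.19.0 (mapping and methylation calls) and GRCm38, and the study states that duplicate reads were removed. The deposited percentages and counts carry no normalization, and the deposited percent equalled the value from the counts within 0.01 points at every position. Reads of F1 animals were mapped to the C57BL/6J reference, so C-to-T differences of CBA/Ca can read as unmethylated. Of the positions, 0.658% to 2.07% were not on a reference CpG and were kept.

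Counts were summed over 10-kb bins (at least 10 calls in each of the 8 libraries), GENCODE M21 gene bodies (at least 20) and 1-kb windows with at least 50 CpGs (at least 20). Bins were tested by a logistic likelihood-ratio test (adjusted p below 0.05 after Benjamini-Hochberg correction, and a group difference of at least 20 points), genes and windows with limma, and means by two-sided exact permutation over the 56 assignments of the samples (21 without IV1). The logistic test covers counting error with every call taken as independent, and limma and the permutation test cover the spread between pools. Named genes were the 12 with the most called bins and the 10 called genes with the largest difference per direction, the 5 largest bins outside genes, called windows, 15 genes picked from those the study names and up to 4 examples per list and direction. The comparison, the gene lists and the rules were chosen with earlier results of these data known. The scripts were tested on simulated data.

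Alternatives were other tests, limits, minimum calls, bin grids, thinning of each library to 5041587 autosomal calls, the 3 deep SO libraries alone, reference CpGs only, the replicate number as a block and each library left out in turn. Limma and the quasi-binomial test of bins without IV1, SO1 to SO3 without a block, and the block for windows were added after seeing the data. Sex chromosomes and non-CpG methylation were not analysed here, and some genes of the lists are not reported here. Calculations used Python 3.11.15, numpy 2.4.6, pandas 2.3.3, scipy 1.17.1, matplotlib 3.10.9, R 4.3.3 and limma 3.58.1.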

Additional observations from a re-analysis of the deposited data

Results flagged for a closer look

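In 8 of the 112 groups of 4 or 5 samples checked, 1 sample lay apart from the others by Dixon's test, which chance alone gives in about 1 group in 20. SO3 was that sample in 5 of them. Its gene-body methylation was 75.6% at Tcf4 (others 77.9% to 78.7%), 54.0% at Zfp521 (59.9% to 62.0%), 52% at Zbtb20 (56.5% to 57.4%) and 49.4% at Adgrl3 (42.5% to 43.6%), in each case nearer to IV than the other SO samples were, and it was 7.63% in the promoter window of Gab1 (0 to 2.04%). SO4 had 10.8% in the bins under 20% in IFC and SOA, where the other SO samples had 7.62% to 8.26%. SO1 had 60% in the promoter window of Peg10 (91.7% to 100%), on as few as 5 calls. IFC4 had 33.3% in the bins lower in SO, against 35.9% to 36.2% in the other IFC samples. No cause was tested.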

How the results depend on the processing

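Which bins and genes were called depended on the test and on single pools. The logistic rule called 2709 bins (1450 higher, 1259 lower). With the spread between pools in the test, limma called 519 (329 and 190) and the quasi-binomial F test 2, both higher and none lower, with 14040 bins at an unadjusted p below 0.05. A limit of 30 points gave 626 (370 and 256) and one of 10 points 10785 (4975 and 5810), of the same 156156 tested bins. A minimum of 20 calls gave 1297 (731 and 566), of only 83633 tested bins. Bins of 20 kb gave 1307 (743 and 564), of 111275 tested. Leaving out each library in turn gave 2742 to 3387 bins, 1380 to 1931 higher and 1109 to 1836 lower. Without IV1, limma called 80 (73 and 7) and the quasi-binomial test 0 (0 and 0, with 12969 at an unadjusted p below 0.05). Bins past the adjusted p alone numbered 11692 to 24512 with 1 library left out, 6423 to 7259 of them higher and 4433 to 17697 lower, against 19099 with all, and the lowest values were those without IV1 (11692, and 4433 lower). The other 8 alternatives for called bins stayed within 1.5 times.

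The mean difference over bins of -0.501 points became 0.279 with calls pooled over bins and lay between -1.19 and 0.771 with 1 library left out, the last without IV1. Low bins gave -3.61 to 0.538, also turning without IV1, and bins over 80% 0.450 to 1.81. Bins of 20% to 80% gave -0.442 to 1.37, negative without SO1, SO2, IV2 or IV3, and -0.795 with the 3 deep SO libraries alone. None of these differences passed a test in any direction. Maternally methylated imprinted promoters gave 2.51 to 4.61 points, the last without IV3 with the smallest exact permutation p that 21 assignments allow, 0.0476. With bins called anew each time, IFC exceeded SOA by 17.4 to 20.6 points at higher bins, lowest without IV1, and IFC minus SOA was -23.8 to -18.6 at lower bins, nearest to 0 without IV2 or IV3.

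Limma called 73 of 20001 tested genes (50 higher, 23 lower). On empirical logits it called 0 (0 and 0, 1751 at an unadjusted p below 0.05). A minimum of 10 calls gave 39 of 23392 tested genes (27 and 12) and one of 50 calls 119 of 13381 (85 higher). Thinned libraries gave 25 of 18344 (17 and 8), and the 3 deep SO libraries alone 2 (2 and 0). The logistic test with 20 points called 187 (130 and 57). Centring the samples gave 107, 43 of them lower. With 1 library left out they were 1 to 85, 1 to 61 higher and 0 to 24 lower: 12 without SO1, 11 without SO2, 85 without SO3, 7 without SO4, 8 without SO5, 8 without IV1, 1 without IV2 and 3 without IV3. With 1 library left out, 2 (without IV2) to 30 (without SO3) of the 32 named genes and windows called stayed called, and none turned direction. CpG-dense windows numbered 1 to 4, 0 to 1 higher and 1 to 4 lower with 1 library left out, 4 without IV2 and 1 without SO1, SO2, SO3 or SO5, and 28 by the logistic test (16 and 12). Genes that were not called and turned direction were Adgrl2 (-0.403 centred, -2.66 with the deep SO libraries, -1.22 to 2.27 with 1 library left out), Grik1 (-0.327, -1.45 and -0.981 to 1.79), Mtor (0.388 thinned, -1.72 to 0.657 with 1 left out) and Zscan10 (-3.00 to 1.20).

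Pools with the same number in SO and IV did not deviate together over bins (r = -0.0453, 0.0108 and 0.0140), so the numbers were not taken as pairs. The number as a replicate block over SO1 to SO3 and IV1 to IV3 called 2895 bins (1829 and 1066), against 2911 (1793 and 1118) in the same pools with no block. With the block limma called 0 genes (0 higher, 0 lower, 1815 at an unadjusted p below 0.05) and 1 window (1 higher, 0 lower), and Mtor (0.219), Sox5 (0.296) and Zscan10 (2.43) turned direction. Thinning all libraries to the same number of calls left 2215 called bins, of 125698 tested, and intervals of counting error do not cover the spread between pools.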

Other observations

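The called bins were spread over all 19 autosomes. Higher bins made up 0.587% of the tested bins of chromosome 17 and 1.38% of those of chromosome 16. Lower bins made up 0.428% on chromosome 16 and 1.52% on chromosome 15, where Fer1l6 lies. These shares were not tested.

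Runs of lower bins that overlap no gene were found at chr15:74050001-74230000 (9 bins, 40.1% in SO and 68.9% in IV), chr2:158900001-159020000 (9 bins, 47.01% and 74.2%) and chr17:64920001-64980000 (6 bins, 30.6% and 62.3%). The SOA means were 66.7%, 74.3% and 68.1%, and the IFC means 32.1%, 41.9% and 25.1%, below SO in each run. Each of the 15 runs with the most higher bins overlapped an annotated gene.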
